A study of Danio rerio with 12 samples.

Results

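Open chromatin was mapped by ATAC-seq, in which a transposase cuts accessible DNA, and the long arm of zebrafish chromosome 4 was examined here through the peak lists of 12 samples. Any peaks of the 12 lists with an overlap of 1 bp or more were joined to a region, and those regions of chromosome 4 that start at or after position 30000000 of the Zv9 assembly were taken as the long arm. This gave 4823 of 245646 regions in all, against 5333 on the rest of chromosome 4, 224538 on the other chromosomes and 10947 on unplaced scaffolds. The choice used position alone and no measured height.

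The long arm of chromosome 4 is an unusual stretch of the zebrafish genome. It is known as late replicating and heterochromatic, rich in satellite and other repeats, and home to tandem families of zinc finger and NLR immune genes and to clusters of 5S ribosomal RNA genes, with few of the conserved single-copy genes found elsewhere. In strains close to the wild it also carries a sex-linked region. Neither the repeat content nor the replication time could be checked in peak lists, so the term long arm stands here only for the position.

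The embryos came from crosses within the Tg(sox17:GFP) line, in which the sox17 promoter drives GFP in endodermal cells, and were raised at 23 °C. They received DMSO at 0.1% as the solvent control, 1 µM retinoic acid (RA), or 1 µM BMS493, an inverse agonist of the RA receptors, from the 2-cell stage to the 3-somites stage. GFP+ cells were sorted from each treatment (endodermal samples, named DMSO, RA and BMS493) and GFP− cells from DMSO-treated embryos alone (NE), which makes NE a mixture of every other cell type of the embryo. Each of the 4 conditions had 3 samples, with about 10000 sorted cells in an endodermal sample, and nothing states whether these came from separate clutches, so p-values measure only the spread between these samples.

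The lists held 51301 to 143755 peaks, from 11056595 to 22930744 tags after filtering. The shortest list, DMSO replicate 1, stood apart from the rest in length and the longest was NE replicate 2. As a check of the sort, 4 of the 26 regions within 50 kb of gata6, an endodermal transcription factor gene, were higher in endodermal than in NE samples by the limma fit described below, as was 1 of the 22 near mnx1, a homeobox gene, and 0 were higher in NE near either gene. Near neither gene was any region called in all endodermal and no NE samples. Over all regions tested, 3.59% were higher in endoderm and 8.32% in NE, so the 1 call near mnx1 says little about the sort.

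Called regions were sparser and narrower on the long arm. Density was counted over the sequence up to the last region of each chromosome. Whether reads can be placed equally well on the arm was not tested. The arm held 150.3 regions per Mb, against 177.8 on the rest of chromosome 4. The other 24 chromosomes held 160.8 (chromosome 12) to 189.2 (chromosome 23), so the arm lay below every one of them. The median merged region was 142 bp wide, compared with 209 bp on the rest of chromosome 4 and 195 bp on the other chromosomes. As a result the regions covered 2.80% of the long arm, 4.29% of the rest of chromosome 4 and 4.13% of the other chromosomes. Regions called in all 12 samples were fewer, at 8.63 per Mb on the long arm against 19.9 and 20.5 per Mb. Regions called in 1 sample went the other way, at 73.0 per Mb against 58.3 and 62.2.

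Along the chromosome, no 1 Mb bin of the long arm was empty. The bins of the arm held 107 to 197 regions (median 148.5) and those below the boundary 94 to 248 (median 181). The fullest long-arm bin, at 59 to 60 Mb, had 197 regions and also the most regions called in all 12 samples, 21. The fall in density began before the boundary. Bins from 0 to 20 Mb averaged 199.75 regions, bins from 20 to 30 Mb averaged 133.8, and the first 13 bins of the arm, from 30 to 43 Mb, averaged 133.3. The regions called in all 12 samples fell in 2 steps instead, from 23.6 per bin at 0 to 20 Mb to 12.6 at 20 to 30 Mb and 7.54 at 30 to 43 Mb. From 43 to 62 Mb the arm averaged 160.6 regions per bin, 9 of them called in all 12 samples. The median gap between neighbours was 3565.5 bp on the arm, 2779.5 bp on the rest of chromosome 4 and 3134 bp elsewhere, while gaps under 1000 bp made up 27.4%, 26.1% and 26.7%. At the boundary itself, the last regions outside it (29996939 to 29997023 and 29997032 to 29997253) were called in 1 and 4 samples, and the first inside it (30002637 to 30002878 and 30005562 to 30005780) in 8 samples each.

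**Figure D1:**
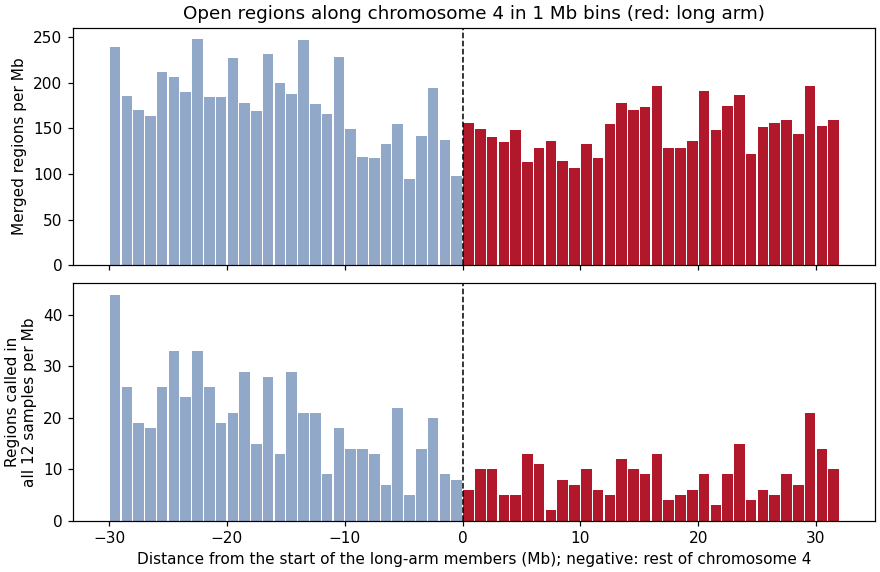
Number of merged regions per 1 Mb bin (upper panel) and number of those called in all 12 samples (lower panel) against distance in Mb from the start of the long-arm members; blue bars are the rest of chromosome 4 and red bars the long arm. Long-arm bins hold 107 to 197 regions and 2 to 21 regions called in all samples, and the blue bars from -10 to 0 Mb average 133.8 regions, against 199.75 before them.

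Fewer samples called each long-arm region. Of the 4823 regions, 2344 (48.6%, 95% Wilson interval 47.19 to 50.01%) were called in 1 sample, compared with 32.8% on the rest of chromosome 4, 35.9% on the other chromosomes and 40.02% on scaffolds. Only 277 (5.74%, 5.12 to 6.44%) were called in all 12, against 11.2%, 11.8% and 9.10%. These intervals cover counting error only, since regions of one list share a library. The median long-arm region was called in 2 samples and the median region of the other chromosomes in 3. The shift was present in every condition. Regions called in all 3 samples made up 13.5% of the members for NE, 10.2% for DMSO, 13.9% for RA and 11.2% for BMS493, against 25.2%, 17.6%, 23.2% and 21.3% on the other chromosomes. With every list shortened to its 51301 strongest peaks, 39.9% of the arm's regions were called in 1 sample and 8.60% in all 12, against 27.3% and 16.7% for all other regions.

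**Figure D2:**
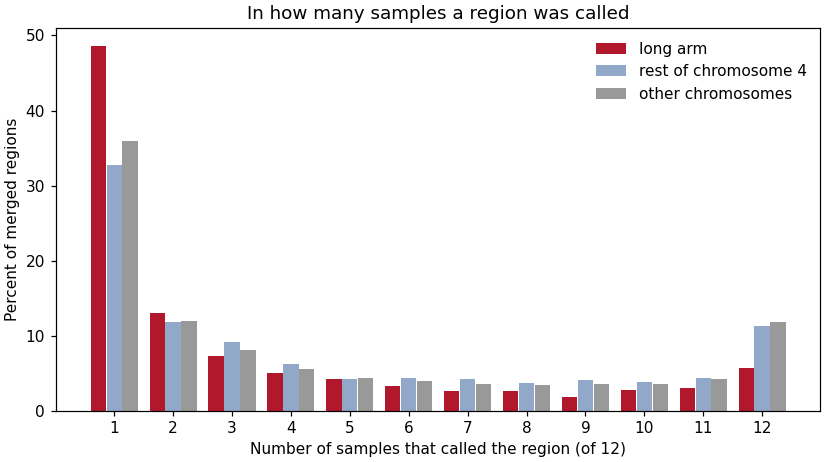
Percent of merged regions (vertical axis) by the number of samples that called them (horizontal axis, 1 to 12), for the long arm (red), the rest of chromosome 4 (blue) and the other chromosomes (grey). The red bar is the highest of the 3 at 1 sample (48.6%) and the lowest at 12 samples (5.74%).

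Peaks of the long arm were lower in every sample. Height is given as the percentile rank of a peak's pileup (the number of extended tags at its summit) within its own list, from 0 for no peak to 100 for the highest. The median rank of long-arm peaks was 29.6 to 43.7 over the 12 samples (median 34.4), and that of all other peaks 49.2 to 52.7 (median 51.2), so the ranges did not overlap. The mean difference was -15.9 ± 3.99 (SD, n = 12), with the long arm lower in 12 of 12 samples (two-sided exact sign-flip permutation test, p = 0.000488, adjusted p = 0.000488 over 8 tests, the smallest value that 12 samples allow).

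The other measures of the same peaks moved in the same direction. Fold enrichment over local background had a median of 4.88 on the arm and 5.36 elsewhere, a mean difference of -0.450 ± 0.0766. The median −log10 q was 4.65 against 5.64, a difference of -1.04 ± 0.153, and the median peak width 140.5 bp against 178.5 bp, a difference of -37.75 ± 4.81 bp. All were lower in 12 of 12 samples, also against the rest of chromosome 4 alone, where the differences were -15.6 in rank, -0.439 in fold, -0.977 in −log10 q and -34.8 bp in width (exact p = 0.000488 each, the smallest possible). These measures come from the same tags and are not independent of each other. The local background that the peak caller used could be read only at called peaks. Its median there, relative to the genome-wide level, was 1.16 (1.09 to 1.30 over samples) for long-arm peaks, 1.27 (1.11 to 1.37) for the other chromosomes and 1.52 for scaffolds. It was lower on the arm than on the rest of chromosome 4 and on the other chromosomes in 11 of 12 samples, the exception being DMSO replicate 1 (1.30 on the arm, 1.29 and 1.28).

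**Figure D3:**
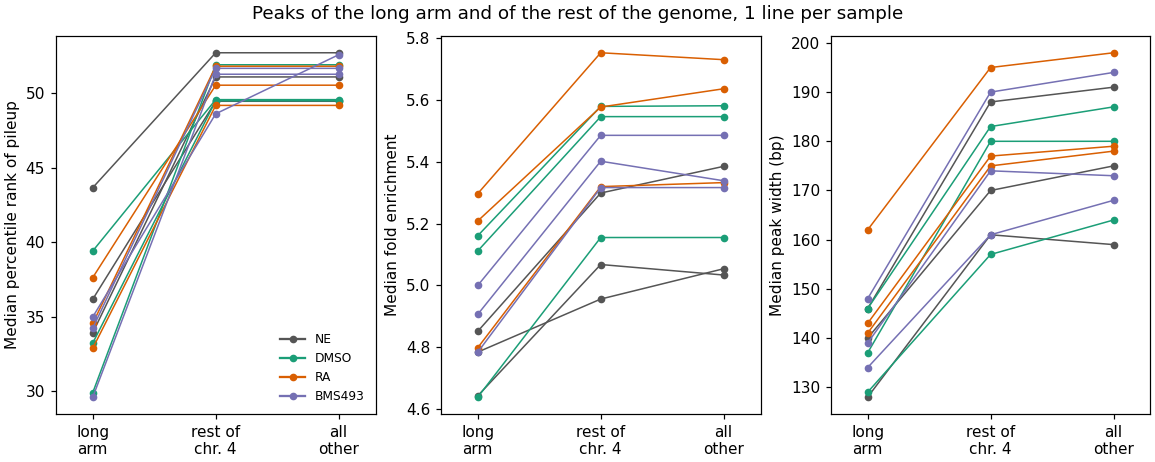
Median percentile rank of pileup (left), median fold enrichment (middle) and median peak width in bp (right) of long-arm peaks, of peaks on the rest of chromosome 4 and of all peaks off the long arm; each line is a sample, coloured by condition, and the vertical axes do not start at 0. Every line is lower at the long arm than at both other points.

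The height of a region and the number of samples that call it go together, so heights were also read within classes of equal recurrence. Among regions called in all 12 samples, the median rank on the arm was 70.9 (64.0 to 78.9) and on the other chromosomes 78.9 (64.5 to 85.2), and the median widths were 231.75 and 288 bp. Among regions called in 1 sample, the median ranks were 12.2 and 12.4 and the widths 85 and 86 bp, which left little between them. Regions with a mean rank of at least 90 made up 37 members (0.767%), compared with 2.06% on the rest of chromosome 4, 2.53% on the other chromosomes and 3.67% on scaffolds. All 37 were called in 12 samples.

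A few long-arm regions nevertheless stood among the highest in the genome. The region with the highest mean rank, 99.1, lay at 60231940 to 60232411 (472 bp), with ranks of 99.6, 99.9 and 98.9 in NE, 97.1, 99.1 and 99.8 in DMSO, 98.7, 99.0 and 99.1 in RA, and 99.1, 99.1 and 99.8 in BMS493. It was in the top 3% of every list. By mean rank it was followed by 43898484 to 43898864 (98.9), by 36255579 to 36255919 (98.5), which had the highest mean fold enrichment of the arm, 21.7 (15.6 to 25.6), and by a pair of close neighbours, 50386301 to 50387022 (98.2) and 50389813 to 50390204 (97.9). None of these 5 regions passed the limma test in any comparison, but ranks this close to 100 left little room for a difference. They were chosen for high ranks over all samples, so this does not show whether they change. The widest region, 43971053 to 43972580 (1528 bp, mean rank 93.7), was followed by 36738095 to 36739373 (1279 bp, 78.2) and 58035177 to 58036319 (1143 bp, 79.0), and all of these were called in 12 samples. Some tall regions lay close together. Counting runs of at least 3 tall regions with gaps of up to 25 kb, 3 clusters were found, at 35002350 to 35007270 (4 regions), 60226506 to 60246279 (3 regions) and 62017203 to 62063876 (3 regions). Such runs were not counted off the arm, so whether these are particular to it was not tested.

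The share of a list's peaks that lay on the long arm did not separate the conditions. It was 1.40, 1.47 and 1.496% in NE, 1.40, 1.31 and 1.62% in DMSO, 1.55, 1.47 and 1.49% in RA, and 1.49, 1.51 and 1.23% in BMS493, and the 4 groups overlapped. The largest of 5 differences was RA over BMS493, 1.502 ± 0.0452% against 1.41 ± 0.160% (SD, n = 3 each), a difference of 0.0922 percentage points (two-sided exact permutation test p = 0.6). Endodermal samples had 1.45 ± 0.123% (n = 9) and NE samples 1.45 ± 0.0511% (n = 3). All 5 adjusted p-values were 1 by the exact test, which cannot go below 0.1 with 3 samples against 3. The share showed no clear relation to list length over the 12 samples (Pearson r = 0.343, permutation p = 0.275; Spearman rho = 0.448, permutation p = 0.148; adjusted p = 0.275 for both). Without the shortest and the longest list r was 0.394 (permutation p = 0.261). With every list shortened to 51301 peaks, the share fell with the original length of the list (Pearson r = -0.750, permutation p = 0.00588). The relation thus depended on how many peaks were kept.

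Next, the regions were compared between cell types, the question being which long-arm sites were more open in endoderm. Ranks were tested with limma over all regions called in at least 3 samples, 127026 in total, of which 1850 were members, with the Benjamini-Hochberg adjustment over the whole table and a threshold of 0.05. Since this filter kept 38.4% of the members, the counts below describe the recurrent regions only. On simulated lists the fit found mainly the taller changed regions and let through more false calls than this threshold states. In the mean of the 9 endodermal samples against NE, 27 members were higher in endoderm (1.46% of those tested) and 45 in NE (2.43%), whereas of all regions tested 3.59% and 8.32% were called. With DMSO endoderm alone against NE, 17 members were higher in DMSO (0.919%, against 2.16% of all regions) and 24 in NE (1.30%, against 4.91%). These comparisons share the NE and DMSO samples. Both shares of the long arm thus stood below those of all regions in both directions. Long-arm peaks were also lower, and how far this set the shares was not tested. Among regions called in 3 to 5 samples, 4.92% of members and 15.1% of all were higher in NE than in endoderm. At 12 samples, 2.89% and 4.55% were higher in endoderm. For DMSO over NE at 3 to 5 samples the order turned, with 1 member (0.126%) against 0.0428% of all.

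Which side held more members depended on list length. In lists of equal length, 741 members were tested. Of these, 37 were higher in endoderm and 16 in NE, and 26 in DMSO and 10 in NE. The order of both pairs thus turned. Of all regions, 8.74% were higher in endoderm and 10.2% in NE, and 6.68% in DMSO and 7.38% in NE, so there the order did not turn. Many called members would not have met the filter without the group where they were high. These were 19 of the 27 on the endoderm side and 39 of the 45 on the NE side, and 1 of 17 and 21 of 24 for DMSO against NE, so the counts are a description. The count of calls rested on single libraries in part. Without NE replicate 1 the endoderm side fell to 17 members and the DMSO side to 8, without DMSO replicate 1 they were 45 and 34, and without DMSO replicates 2 and 3 the DMSO side was 8 and 9. The NE side fell from 45 to 18 without NE replicate 2 (3.18% of all regions). Its count against DMSO alone fell from 24 to 12 without NE replicate 2, 15 without NE replicate 3 and 12 without DMSO replicate 2. There 1.67%, 2.74% and 2.79% of all regions were called. The shares of all regions moved the same way as the members each time.

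Calls alone were counted as well. In all 3 DMSO samples and no NE sample there were 18 members of 3712 called at all (0.485%, against 1.1% of all regions), and in all 3 NE samples and no DMSO sample 40 (1.08%, against 2.82%). Over the 9 endodermal lists together, 1 member was in every one and absent from NE (0.0207%, against 0.443%), and 16 were in every NE list and absent from endoderm (0.332%, against 1.4%). In lists of equal length the order of the sides turned here too, with 21 members in DMSO alone and 11 in NE alone, and 8 in endoderm and 5 in NE. Of all regions, 3.95% were in DMSO alone and 4.07% in NE alone, and 1.44% in endoderm and 2.11% in NE, with the order unturned.

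The 5 endoderm regions with the smallest p are named E1 to E5. E1, at 50817437 to 50818106 (670 bp), had ranks of 43.3, 36.2 and 32.3 in NE and 88.8 to 98.3 (median 94.2) in the 9 endodermal samples, a difference of 57.1 ± 4.71 (SE; limma adjusted p = 1.33e-06). It was called in all samples and lay between 88.8 and 98.3 under all 3 treatments. E2, at 62028624 to 62029179, was called in NE replicate 2 alone among the NE samples (rank 27.6). It ranked 87.4 to 94.0 (median 92.2) in endoderm, a difference of 82.4 ± 7.34. It lay within the span of the tall cluster from 62017203 to 62063876.

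E3, at 57489032 to 57489688, had NE ranks of 0, 18.0 and 43.7 and endodermal ranks of 80.8 to 94.2. E4, at 48339329 to 48339938, had NE ranks of 0, 8.87 and 0 and endodermal ranks of 59.0 to 92.2. E5, at 47958319 to 47959076, had NE ranks of 57.6, 66.5 and 43.7 and endodermal ranks of 85.0 to 97.9. The limma adjusted p of E5 was 0.000147. The 5 were chosen by p on these same ranks, so their separate endodermal and NE ranges are a description. All 5 were also called in DMSO against NE, which reuses some of the same samples and so adds no separate support. E2 to E4 met the filter only through the endodermal samples, so no p is given for them. Of the 27 regions on the endoderm side, 22 were called in every endodermal sample, 8 in every NE sample and 5 in none of NE. Their median width was 479 bp, and 22 of the 27 lay at or past 43 Mb, where 63.7% of the members tested lay.

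The regions higher in NE were narrower and called in fewer samples than those higher in endoderm. NE has 3 samples and endoderm 9, and peaks on the arm were wider where more samples called the region. Neither width nor calls were compared over all regions for these sides. N1, at 45545680 to 45546168, had NE ranks of 84.5, 76.9 and 65.4, and among the endodermal samples was called in DMSO replicate 3 alone, at 3.72. N2, at 62058520 to 62058698, had NE ranks of 67.7, 66.5 and 73.8 and no endodermal call. N3, at 46706566 to 46706752, had 63.1, 69.6 and 79.8 and no endodermal call. Both of the latter had a low fold enrichment in NE, 3.14 to 4.55 and 3.54 to 4.49. N4, at 31588353 to 31588619, was called in NE alone, at 43.3, 69.6 and 59.8. N1 to N4 met the filter only through the NE samples, so no p is given for them. N5, at 30589039 to 30589314, had NE ranks of 80.3, 54.6 and 73.8, and at most 23.4 in endoderm. Of the 45 regions on the NE side, 41 were called in every NE sample and 15 had no endodermal call at all, their median width was 269 bp, and 29 of the 45 lay at or past 43 Mb.

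**Figure D4:**
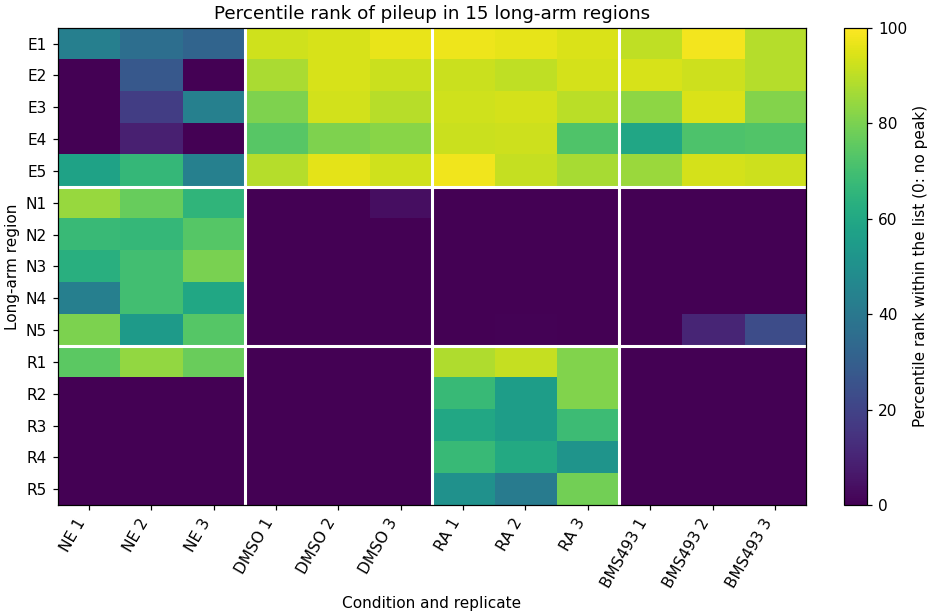
Percentile rank of pileup (colour, 0 for no peak to 100) of 15 long-arm regions (rows) in the 12 samples (columns): E1 to E5 and N1 to N5 are the endoderm and NE regions with the smallest p in endoderm against NE, and R1 to R5 those higher in RA with the smallest p against BMS493. E1 is called in every sample and lowest in NE (32.3 to 43.3), N2 to N4 are called in NE alone, and R1 is the only R region called in NE.

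The single member listed by every endodermal sample but by none of the NE samples was singled out after its values were seen. It lay at 62089666 to 62090087, within 1 kb of the start of CABZ01073085.1 in the study's annotation, whose gene ID (ENSDARG00000087206) carries the symbol cct2, a subunit of the cytosolic chaperonin that folds actin and tubulin. Its ranks were 14.3, 78.5 and 88.3 in DMSO, 91.5, 84.0 and 85.2 in RA, and 64.3, 56.5 and 34.2 in BMS493. It met the filter only through the endodermal samples, so no p is given for endoderm against NE, while RA against BMS493 differed by 35.2 ± 17.9 (limma adjusted p = 0.607). The study, which tested read densities in these same samples, lists a peak here as induced in RA against BMS493. The ranks used here hold no read counts.

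The effect of RA was compared next. RA against DMSO gave 4 members higher in RA (0.216% of 1850, against 0.194% of all regions) and 0 higher in DMSO (0.0362% of all regions). On the DMSO side 24 members had an unadjusted p under 0.05 by limma (1.30%, against 2.54% of all regions). RA against BMS493, the comparison with the receptors held inactive, gave 6 higher in RA (0.324%, against 0.625%) and 0 higher in BMS493 (0.131%). On the BMS493 side 36 members had an unadjusted p under 0.05 by limma (1.95%, against 3.47% of all regions). BMS493 against DMSO gave 0 in either direction, where 0% and 0.000787% of all regions were called. At an unadjusted p under 0.05 by limma there were 19 and 21 members (1.03% and 1.14%, against 0.786% and 0.989% of all regions). These comparisons share samples, and the 4 regions higher in RA than in DMSO were all among the 6. Of the 4 members 3, and of the 6 members 5, had peaks in the RA samples alone and so met the filter only through them.

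The RA counts were small and depended on the fit. They fell to 0 against DMSO with no filter on recurrence and with a replicate block, where 0% of all regions were called too. When any 1 of the 12 samples was left out, 0 to 1 member was called, beside 0 to 94 regions in the whole table. Against BMS493 they were 15 without DMSO replicate 1, where 1.05% of all regions were called. Without any of the NE, RA or BMS493 samples they were 0 to 2, beside 1 to 351 regions in the whole table. Without DMSO replicates 2 and 3 they were 4 and 7, against 0.354% and 0.688% of all regions. Without limma's robust option, a fit added after the data were seen, 9 and 16 members were higher in RA, where 0.508% and 0.919% of all regions were called.

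Counting calls alone, 29 members of 3225 were called in all 3 RA and no DMSO sample (0.899%, against 0.963% of all regions) and 9 the other way (0.279%, against 0.357%). Against BMS493, 50 members of 3165 were in RA alone (1.58%, against 1.75%) and 12 in BMS493 alone (0.379%, against 0.83%). Between BMS493 and DMSO, 3 members of 3117 were in BMS493 alone (0.0962%, against 0.153%) and 6 in DMSO alone (0.192%, against 0.161%). Members called in every RA sample but absent from DMSO and BMS493 numbered 20 of 3818 (0.524%, against 0.574% of all regions), 17 of them in no NE sample either. Their mean RA rank ran from 6.43 to 86.9, with a median of 33.5.

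R2, at 56678080 to 56678405, had RA ranks of 67.4, 55.5 and 81.1 and no call in the 9 other samples. R3, at 38154183 to 38154475 (60.04, 55.5 and 68.6), R4, at 35089416 to 35089679 (67.4, 60.8 and 51.8), and R5, at 54028974 to 54029233 (50.5, 41.7 and 78.7), were likewise called in RA alone. These 4 regions met the filter only through the RA samples, so their values are a description and no p is given.

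R1 had a pattern that crossed both comparisons. This region of 579 bp, at 44075601 to 44076179, had ranks of 75.0, 83.8 and 77.0 in NE and 88.1, 91.4 and 81.1 in RA, and no call in the 6 DMSO and BMS493 samples. RA exceeded DMSO and BMS493 by 86.9 ± 14.2 each (limma adjusted p = 0.0280 and 0.0208), and NE exceeded DMSO (difference -78.6 ± 14.2; limma adjusted p = 0.00262). Among the alternatives that had a value for R1, the call against DMSO was lost in 14 and kept in 4. The call against BMS493 was lost in 8 and kept in 10. Its fold enrichment was only 3.08 to 3.62 despite pileups of 14 to 27.

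R1 is part of a block of 10 regions, none more than 1 kb from the next, which was looked at after the values of R1 were seen. The region at 44072492 to 44072718, 2882 bp from R1, was called in DMSO replicates 2 and 3 (ranks 62.2 and 75.5) and in all BMS493 samples (83.2, 61.2 and 76.2), and in no NE or RA sample. It did not pass the test of RA against BMS493. Since it met the filter only through the BMS493 samples, no p is given. Of the 12 samples, 11 listed a peak in exactly 1 of these 2 regions, and DMSO replicate 1, the shortest list, in neither. R1 was named for RA over BMS493, and the other region for the smallest p on the BMS493 side. Their opposite calls in RA and BMS493 thus follow from the choice and are a description. Only 1 region of the block was called in all 12 samples, at 44072038 to 44072305, and each sample listed 2 to 7 of the 10. Every peak listed in the block had a rank of at least 51.3, with a low fold enrichment (median 3.84, 2.19 to 6.72). A rank of 0 inside the block therefore says that no peak was listed there, and how many tags that sample had at the site was not tested.

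**Figure D5:**
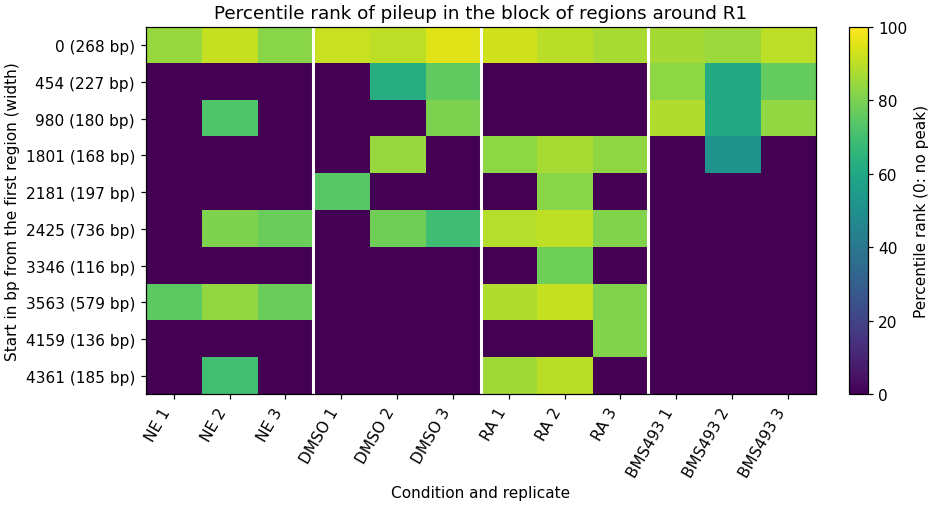
Percentile rank of pileup (colour, 0 for no peak to 100) of the 10 regions of the block around R1 (rows, by start in bp from the first region, with widths) in the 12 samples (columns). The first row is filled in every sample, R1 (579 bp) is filled in NE and RA alone, and each sample has 2 to 7 filled rows.

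Genes could be attached to 13 members, through 12 genes, from the study's annotation of regions it selected as induced in RA against BMS493. That list was chosen on these samples, so the values are a description and no evidence for a response. Of the 13 regions, 11 were called in all 3 RA samples, and 5 of these 11 in no BMS493 sample. Among all 13, 8 were called in no NE sample and 2 in all 3 NE samples. The highest was beside zgc:175107, at 58314856 to 58315346, with mean ranks of 94.1 in RA, 56.5 in DMSO, 51.7 in BMS493 and 69.0 in NE. An intronic region of ptprb, a receptor-type tyrosine phosphatase gene of blood vessels, at 59579069 to 59579312, had mean ranks of 52.1 in RA, 7.58 in DMSO and 0 in BMS493 and NE. The region attached to BX897726.1, at 50424307 to 50424564, was called in RA alone (44.6, 55.5 and 34.6) and met the filter only through these samples. Most of the other attached genes carry clone-based names with no stated function, such as si:dkey-66k12.3 and si:ch211-42i6.1, and 7 of the 12 gene IDs had a symbol in the names table used.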

How the data were processed

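ATAC-seq peak lists of 12 sorted samples, 3 in each of 4 conditions, were used as deposited. Per the labels and file headers, the authors aligned reads to Zv9 with Bowtie2 and called peaks per sample with MACS2 2.1.1.20160309 (no control, q threshold 0.05, tags shifted by 40 bp and extended to 80 bp, 1 duplicate kept). The deposited values are the pileup (a signal in extended tags), the fold enrichment (a ratio to local background), −log10 p and −log10 q, and the peak width in bp. The lists hold no read counts, so the read-density test of the study (DiffBind) was replaced by ranks of pileup, which remove differences in depth but not in list length. Regions absent from a list had rank 0, which can also mean a peak just under the threshold. The headers of the NE lists number the replicates differently from the labels, and the labels were used.

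Peaks sharing 1 bp were merged (checked against bedtools 2.31.1). All regions called in 3 or more samples were fitted with limma 3.58.1 (R 4.3.3; trend and robust; 4 group means) and adjusted by Benjamini-Hochberg. Tested on simulated lists, this fit found mainly the taller changed regions and let through more false calls than its threshold of 0.05 states, whereas the fit without the robust option stayed closer to it. The fit with it was kept because it was the design set for the comparison, and the other was added. Medians and shares were compared with exact tests in Python 3.11.15 and scipy 1.17.1.

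Regions were named by rule: the 5 highest in mean rank, up to 5 per contrast and direction with the smallest limma p, those with a gene in the study's tables, 2 on each side of the boundary, the 3 widest, and the highest in fold enrichment. Regions chosen otherwise are said to be so. The members and lists were chosen with earlier results of these data known. Sequences and repeats of Zv9 were not used here.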

Additional observations from a re-analysis of the deposited data

How the results depend on the processing

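The lower rank, fold enrichment, −log10 q and width of long-arm peaks held in every alternative run. Without the robust option of limma, added after the data were seen, RA against DMSO gave 9 members in RA and 1 in DMSO, and RA against BMS493 gave 16 and 1. The shares of all regions were 0.508%, 0.0504%, 0.919% and 0.137%. Ranks of −log10 q, no filter on recurrence and a replicate block each took RA against DMSO to 0. Of all regions, 0.0252%, 0% and 0% were called there. Without the filter, RA against BMS493 gave 2, and the NE side 13 against DMSO and 27 against endoderm. The shares of all regions were 0.0704%, 1.59% and 3.46%. Requiring 50% coverage gave 7 and 14 (DMSO and NE sides), 2 (RA over DMSO), and 12 and 22 (endoderm and NE sides). There 1315 members were tested, and the shares of all regions were 1.30%, 4.54%, 0.501%, 2.25% and 6.18%. By presence it gave 13 (RA, against DMSO), 29 (RA, against BMS493) and 3 (endoderm), beside 1.10%, 1.90% and 0.257% of all regions. By recurrence it gave 55.4% in 1 sample and 1.46% in 12 (42.9% and 3.91% for all other regions). Lists of equal length left 1593 members, 39.9% of them in 1 sample and 8.60% in 12. They gave 26 and 10 (DMSO and NE sides), 1 (DMSO over RA), 2 (BMS493 over RA) and 16 (NE over endoderm). Of all regions, 6.68% and 7.38%, 0.764%, 1.58% and 10.2% were called in the same order. By presence they gave 11 (NE, against DMSO), 7 (RA, against DMSO), 14 (RA, against BMS493), 6 (BMS493, against DMSO), 8 (endoderm) and 5 (NE, against endoderm). The shares of all regions were 4.07%, 1.56%, 2.12%, 0.392%, 1.44% and 2.11%. The share on the arm then turned to 0.114 points higher in DMSO than NE and 0.0901 higher in endoderm than NE. Its r with the original list length turned to -0.750. A −log10 q of at least 3 turned the endoderm share to 0.0159 points over NE. It gave 45.6% in 1 sample (33.7% for all other regions) and 3 in DMSO alone against BMS493 (0.155% of all regions). Merging within 100 bp gave 44.4% in 1 sample (32.1% for all other regions), 10 (RA over BMS493), 5 (BMS493 alone against DMSO) and 0 (endoderm alone). The last 3 stood beside 0.743%, 0.164% and 0.477% of all regions. The causes were not tested.

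Leaving out each sample in turn gave, by limma, 8 to 34 (DMSO) and 12 to 23 (NE) for DMSO against NE, 17 to 45 (endoderm) and 18 to 54 (NE) for endoderm against NE, 0 to 1 (RA over DMSO), and 0 to 15 (RA) and 0 to 2 (BMS493) for RA against BMS493. In that order the shares of all regions ran from 1.19% to 4.225%, 1.67% to 4.73%, 2.33% to 5.45%, 3.18% to 8.71%, 0% to 0.0780%, 0.000806% to 1.05% and 0.000802% to 0.394%. By presence, which then asks for fewer samples, it gave 23 to 95 (DMSO) and 43 to 115 (NE), 1 to 9 (endoderm) and 16 to 47 (NE), 32 to 85 (RA) and 13 to 85 (DMSO), 54 to 112 (RA) and 16 to 57 (BMS493), and 3 to 38 (BMS493) and 8 to 86 (DMSO). The share differences ran from -0.102 to 0.0559 (DMSO less NE), -0.0310 to 0.0255 (endoderm less NE), -0.00786 to 0.150 (RA less DMSO), 7.62e-05 to 0.143 (RA less BMS493) and -0.100 to 0.0600 (BMS493 less DMSO).

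Replicate numbers gave no sign of a pairing. Since the NE headers number the replicates differently, these numbers cannot show whether samples shared a batch. Same-numbered samples had r of -0.154 to 0.206 over 18 pairs, and 4 of 12 samples correlated best with their own number. The replicate block gave 14 and 21 (DMSO and NE sides), 27 and 45 (endoderm and NE sides), 0 (RA over DMSO) and 4 (RA over BMS493). The shares of all regions were 2.06%, 4.43%, 3.55%, 8.10%, 0% and 0.298%. For 35 calls of named regions, 491 of 624 alternative values kept direction and call, 133 lost the call and 0 turned. Alternatives with no value for a region are not among the 624, so they count as neither kept nor lost. For endoderm against NE, E1 had 20 values and N3 had 15. A region called in only 3 samples fails the filter when any of these is left out, so for such regions the counts overstate stability. DMSO replicate 1 limits what absence from a list can show.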
